A study of Arabidopsis thaliana with 12 samples.

Results

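The genotype by nitrate interaction asks whether the roots of an Arabidopsis thaliana double mutant, tga1/tga4, answer nitrate differently from those of the wild type Col-0. It was computed for each probe set as the KNO3 minus KCl difference of the mutant minus the same difference of Col-0, on the log2 scale. All 12 samples of the series entered, 3 per group, and 22746 of the 22810 probe sets on the array were used, the other 64 being controls. The groups were tga1/tga4 roots given KNO3, tga1/tga4 roots given KCl, Col-0 roots given KNO3 and Col-0 roots given KCl, each salt at 5 mM for 2 h. Every group, Col-0 included, came from hydroponic seedlings 15 days old, cultured for 14 days with 0.5 mM ammonium succinate as the source of nitrogen and 3 mM sucrose, in cycles of 16 h of light and 8 h of dark at 22 °C. Whole roots were collected, so each sample mixes all root cell types. The labels name the mutant by its genes and give neither its alleles nor the number of lines. They describe the replicates as independent and biological but not whether plants, cultures or days were separate, so p-values cover the spread among these 12 samples alone, part of which may be technical.

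Nitrate is both a nutrient and a signal for roots. Within minutes to hours it raises transcripts for its own uptake and reduction, for the supply of reductant to those steps, and for transcription factors that adjust the response. TGA1 and TGA4 are related transcription factors of the bZIP family, known from defence signalling with salicylic acid and, in roots, from nitrate responses that include root architecture and root hairs. An interaction below 0 means that the mutant's response was less positive or more negative than that of Col-0, and an interaction above 0 the opposite.

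Only 1 probe set passed the test of the interaction, 250463_at. Its nitrate rise was present in Col-0 and not detected in the mutant, where all its values lay under their sample medians. It was 1 of 22746 tested, or 0.0044% (limma, Benjamini-Hochberg adjusted p under 0.05), and 0 were higher (limma; 396 higher at an unadjusted p under 0.05). The unadjusted p was under 0.05 for 683 probe sets, 3.0% of all, with 396 higher (1.74%) and 287 lower (1.26%). Samples of the same salt and number deviated together, with correlations from 0.276 to 0.726 between the genotypes. With that number as a block within each salt, 2 probe sets were called (0.00879%), both lower, and 1473 (6.48%) had an unadjusted p under 0.05. The second was 247199_at. The 4 samples numbered 3 stood apart from the other 8 on the second principal component, and without them 0 probe sets were called (limma; 564 at an unadjusted p under 0.05).

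Probe set 250463_at has no gene in the annotation used here. Its log2 values were 0.76, 0.79 and 1.05 in tga1/tga4 under KNO3 and 0.43, 0.84 and 0.59 in tga1/tga4 under KCl. In Col-0 they were 5.11, 5.29 and 5.50 under KNO3 and 2.93, 2.45 and 2.63 under KCl. All mutant values were lower than the medians of their samples (2.21 to 2.41 over the 12 samples), all Col-0 values lay above those medians, and the groups of the genotypes did not overlap under either salt. The interaction was -2.38 with a standard error of 0.23 and a 95% confidence interval from -2.88 to -1.88 (limma adjusted p = 0.00731). The response was 0.25 in the mutant (adjusted p = 0.556) and 2.63 in Col-0 (adjusted p = 1.35e-06). The mutant was already lower by 2.05 under KCl (adjusted p = 0.000445) and by 4.43 under KNO3 (adjusted p = 1.54e-07). With values raised to the sample medians those differences were -0.36 and -2.97 and the interaction was -2.60. Without the samples numbered 3 the estimate was -2.37 and the adjusted p was 1.

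The pattern of 247199_at, which also has no gene in the annotation and was singled out after its values were seen, was the same in kind. Its values were 1.64, 1.43 and 1.12 in tga1/tga4 under KNO3 and 1.48, 1.03 and 0.79 in tga1/tga4 under KCl, all below the medians of their samples. Under KNO3 its values in Col-0 were 7.27, 7.61 and 7.25, and under KCl they were 5.08, 4.61 and 4.17. Its interaction was -2.46 with a standard error of 0.34 and did not pass (limma adjusted p = 0.145), while it passed with the replicate block (adjusted p = 0.00191). Col-0 rose by 2.76 (adjusted p = 2.62e-05), and the mutant had a response of 0.30 (adjusted p = 0.66). Mutant values of both probe sets were thus not shown to exceed background. Where the mutant shows no signal under either salt, a rise in Col-0 alone gives a negative interaction. Whether TGA1 or TGA4 is the target of either probe set was not analysed here.

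**Figure D1:**
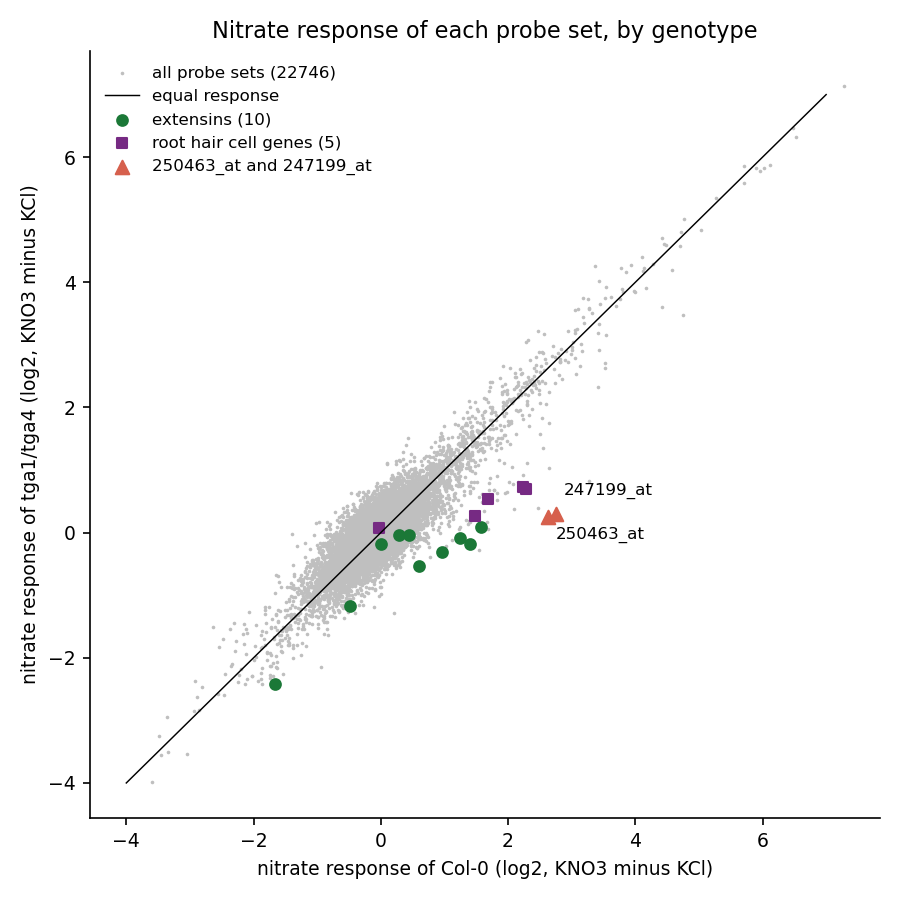
Nitrate response of each probe set in tga1/tga4 (vertical axis) and Col-0 (horizontal axis), both as KNO3 minus KCl on the log2 scale, with a line of equal response. Most of the 22746 probe sets lie along the line, while 250463_at and 247199_at lie below it at responses of 2.63 and 2.76 in Col-0 and 0.25 and 0.30 in the mutant.

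For the nitrate response at large, the interaction was centred close to 0. Its median over all probe sets was 0.01, with quartiles of -0.14 and 0.17 and a median standard error of 0.23. Averaged over both genotypes, nitrate raised 1323 probe sets and lowered 1237 (5.82% and 5.44% of all, 11.3% together; limma adjusted p under 0.05). Among those raised the median interaction was 0.02, and 627 of 1323 (47.4%) had a negative interaction. Among those lowered the median was 0.00, and 618 of 1237 (50%) had a positive one. The 28 probe sets with an average rise of at least 4 had a median interaction of 0.01, and in 14 of them it was negative. The 159 with an average rise between 2 and 4 had a median of 0.07, and in 63 of them (39.6%) it was negative. Sampling limits these statements: the 95% confidence interval lay within -1 and 1 for 81.8% of all probe sets and for 68.4% of those that answered nitrate on average.

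For genes of reductant supply and nitrate regulation the interaction was small relative to its error. Reductant for nitrate reduction in roots comes largely from the oxidative pentose phosphate pathway, and the 6-phosphogluconate dehydrogenase gene AT1G64190 of that pathway gave the narrowest comparison. It stood at 10.27, 10.19 and 10.13 in tga1/tga4 under KNO3 and 7.52, 7.38 and 7.23 in tga1/tga4 under KCl. In Col-0 it stood at 10.15, 10.08 and 10.25 under KNO3 and 7.50, 7.35 and 7.57 under KCl. The KNO3 samples of both genotypes overlapped, as did the KCl samples. The interaction was 0.14, with a 95% confidence interval from -0.21 to 0.48. Over the 6 measured genes of reductant supply the median interaction was 0.08, with a range from -0.12 to 0.36, and 0 met the adjusted threshold (limma; 0 at an unadjusted p under 0.05).

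Of the 4 measured nitrate regulators, 0 passed (limma; 0 at an unadjusted p under 0.05), and the median interaction was 0.15. AT1G68670 (HHO2) and AT3G25790 (HHO1) encode GARP-type repressors induced by nitrate. AT1G68670 had an interaction of -0.16 with an interval from -0.95 to 0.64. For AT3G25790 the values were 4.33, 2.79 and 6.20 in tga1/tga4 under KNO3 and 0.67, 0.84 and 0.59 in tga1/tga4 under KCl. In Col-0 they were 3.50, 2.52 and 5.93 under KNO3 and 0.81, 0.67 and 0.90 under KCl. Under KNO3 the samples numbered 2 were low and those numbered 3 high in both genotypes, and the interaction of 0.56 had an interval from -2.03 to 3.15. Between samples of the same number, the mutant minus Col-0 differences were 0.84, 0.27 and 0.27 under KNO3 and -0.15, 0.17 and -0.32 under KCl, which do not overlap. Such differences were separated in this direction in 1352 of 22746 probe sets, so the separation does not set this gene apart. With the replicate block AT3G25790 had an unadjusted p of 0.0244 (limma adjusted p = 0.706), the only regulator under 0.05 there, and its 6 KCl values were under the sample medians. The list of nitrate transport and assimilation had 2 genes measured under a name, with interactions of -0.62 and -0.23. Among 11 members of the NPF family, which transports nitrate and other small solutes, 7 were negative, against 48.4% of all probe sets. The median was -0.23 and 0 met the adjusted threshold (limma; 1 at an unadjusted p under 0.05). That member was GTR1, a glucosinolate transporter, at -0.72 (standard error 0.27, unadjusted p = 0.0197). Of its 12 values 7 were under their sample medians, and with values raised to that floor its interaction was -0.24.

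Families linked to TGA factors also had medians near 0. CC-type glutaredoxins are small redox proteins, some of which bind TGA factors and several of which respond to nitrate. Of 17 measured, 9 were negative, against 48.4% of all probe sets, the median interaction was -0.05 and 0 met the adjusted threshold (limma; 0 at an unadjusted p under 0.05). AT4G33040 fell in both genotypes, by 2.07 in the mutant (adjusted p = 0.000324) and by 1.63 in Col-0 (adjusted p = 0.00206). Its interaction of -0.45 had an interval from -1.22 to 0.33, and was -0.76 without tga1/tga4 KNO3 sample 3 and -0.22 without Col-0 KNO3 sample 3. AT5G11930 had the lowest interaction of this family, -0.81 with a standard error of 0.54, and stood at -1.21 without tga1/tga4 KNO3 sample 3 and -0.43 without Col-0 KNO3 sample 3. The 3 measured genes of salicylic acid and TGA-linked defence had a median of 0.00 and the 20 measured bZIP genes a median of -0.05, and 0 of either passed (limma; 0 at an unadjusted p under 0.05).

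Among the cell type markers and cell wall families measured, root hair genes and extensins stood lowest in the interaction, without passing the test. Few cell types could be compared. Non-hair epidermis had 1 measured gene, at -0.06, and endodermis, xylem, phloem and root cap had 0. Root hairs are outgrowths of epidermal cells that enlarge the absorbing surface, and their growth needs wall-loosening expansins, wall-bound class III peroxidases and extensins, the hydroxyproline-rich glycoproteins that strengthen the wall. Of the 32 root hair genes listed, 5 were measured under a name. Of these 0 passed (limma), 4 had an unadjusted p under 0.05, all lower, against 1.26% of all probe sets, and the median interaction was -1.22, against 0.01 over all probe sets. Of 10 measured extensins 0 passed (limma), 10 were negative, against 48.4% of all probe sets, 6 had an unadjusted p under 0.05, all lower, and the median was -0.95. With the replicate block that count was 8 for extensins and 4 for root hair genes, all lower, against 2.54% of all probe sets (limma). In whole roots, a difference in the number of cells of a type and a difference in RNA per cell cannot be told apart. The extensin list was compiled after members had been noticed in these samples, so its direction is not independent evidence. The root hair list was likewise chosen with earlier results of these data known. In it the peroxidase gene AT4G26010 followed the expansins EXPA18 and EXPA7 across the 12 samples (r = 0.975 and 0.954). Its counts are thus not independent evidence either.

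**Figure D2:**
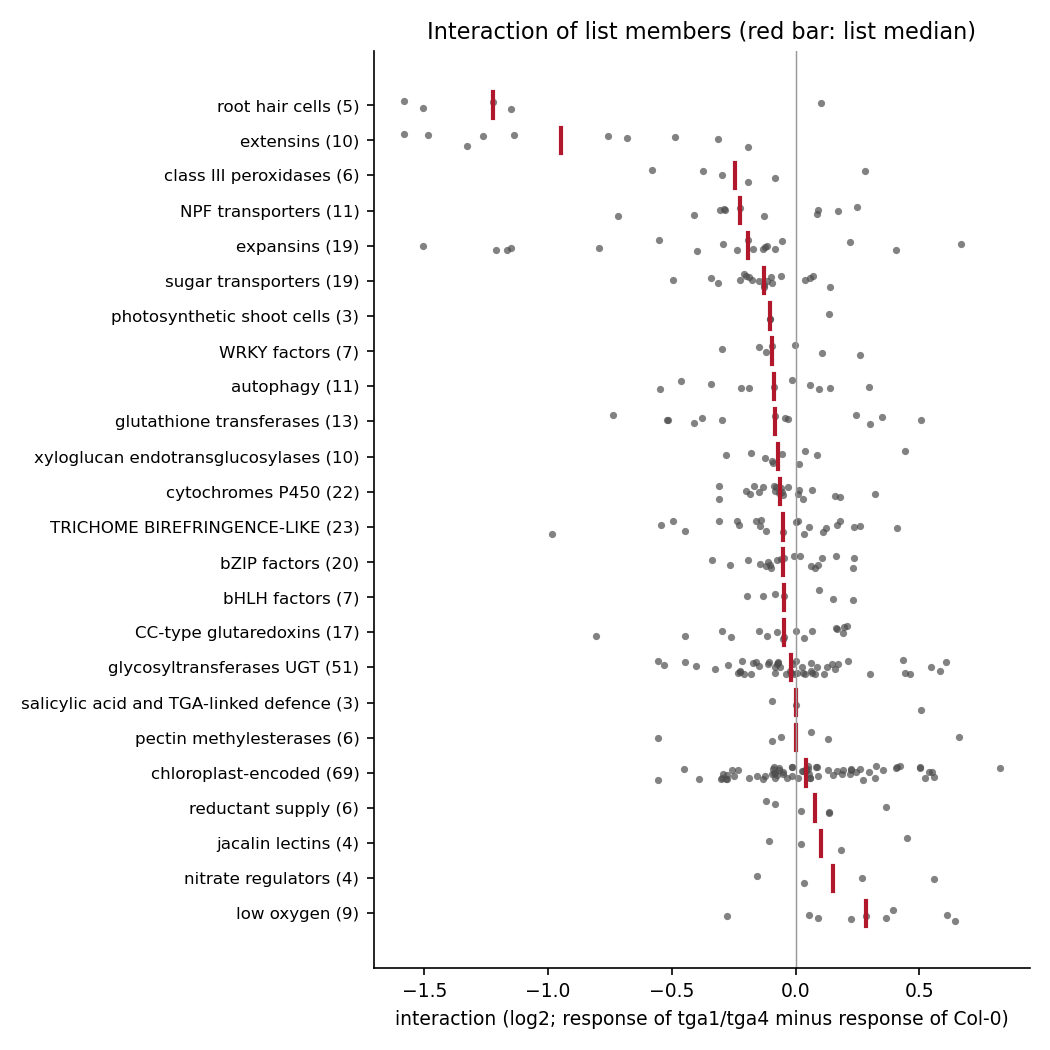
Interaction (horizontal axis, log2) of the measured members of each gene list with 3 or more members; points are probe sets, a red bar is the list's median, and the number measured is in parentheses. Root hair cell genes and extensins have medians of -1.22 and -0.95, and the low-oxygen list is highest at 0.28.

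AT4G26010, a class III peroxidase gene expressed in root hair cells, shows the pattern. Its values were 7.04, 6.56 and 6.76 in tga1/tga4 under KNO3 and 5.45, 6.48 and 6.32 in tga1/tga4 under KCl. In Col-0 they were 7.04, 6.93 and 7.19 under KNO3 and 5.13, 4.52 and 4.64 under KCl. The KCl groups did not overlap, with the mutant above Col-0 by 1.32, while under KNO3 the mutant stood at -0.27 relative to Col-0 and the groups overlapped. Col-0 rose by 2.29 (adjusted p = 0.00015) and the mutant had a response of 0.70 (adjusted p = 0.167). The interaction was -1.58 with an interval from -2.36 to -0.81 (limma adjusted p = 0.999).

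The other peroxidase gene of the root hair list, AT1G30870, had 6.78, 6.45 and 6.44 in tga1/tga4 under KNO3 and 5.66, 6.75 and 6.47 in tga1/tga4 under KCl. In Col-0 it had 6.95, 6.77 and 6.17 under KNO3 and 5.38, 5.00 and 5.06 under KCl. Again all 3 mutant samples exceeded all 3 Col-0 samples under KCl and overlapped with them under KNO3, with an interaction of -1.22 (standard error 0.38, unadjusted p = 0.00759). EXPA18, an expansin of root hair cells, stood at 5.19, 4.75 and 4.62 in tga1/tga4 under KNO3 and at 3.09, 4.56 and 4.72 in tga1/tga4 under KCl. Its Col-0 values were 5.28, 5.13 and 4.98 under KNO3 and 3.12, 2.83 and 2.74 under KCl. In tga1/tga4 under KCl, sample 1 stood with Col-0 while samples 2 and 3 were high. The interaction was -1.50 (standard error 0.48, unadjusted p = 0.00935).

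EXPA7, another expansin of root hair cells, had 4.58, 4.25 and 4.17 in tga1/tga4 under KNO3 and 2.92, 4.47 and 4.0 in tga1/tga4 under KCl. In Col-0 its values were 4.58, 4.21 and 4.45 under KNO3 and 2.63, 2.76 and 2.77 under KCl. The low sample in tga1/tga4 under KCl was again number 1, and the interaction was -1.15 (standard error 0.42, unadjusted p = 0.0194). FER, a receptor kinase that acts in root hair growth and is expressed in many other cells, had an interaction of 0.10, the only positive one of the 5. Averaged over the 5 genes, tga1/tga4 had 6.11, 5.77 and 5.77 under KNO3 and 4.79, 5.80 and 5.67 under KCl. The same average in Col-0 was 6.12, 5.99 and 5.91 under KNO3 and 4.63, 4.38 and 4.42 under KCl. The difference between the genotypes thus lay in the KCl samples, and mainly in tga1/tga4 samples 2 and 3. Without tga1/tga4 KCl sample 1 the median interaction was -1.59, and without sample 2 it was -0.99. Without the 4 samples numbered 3 it was -1.09, with 2 of 5 at an unadjusted p under 0.05, all lower (limma; 1.16% of all probe sets).

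**Figure D3:**
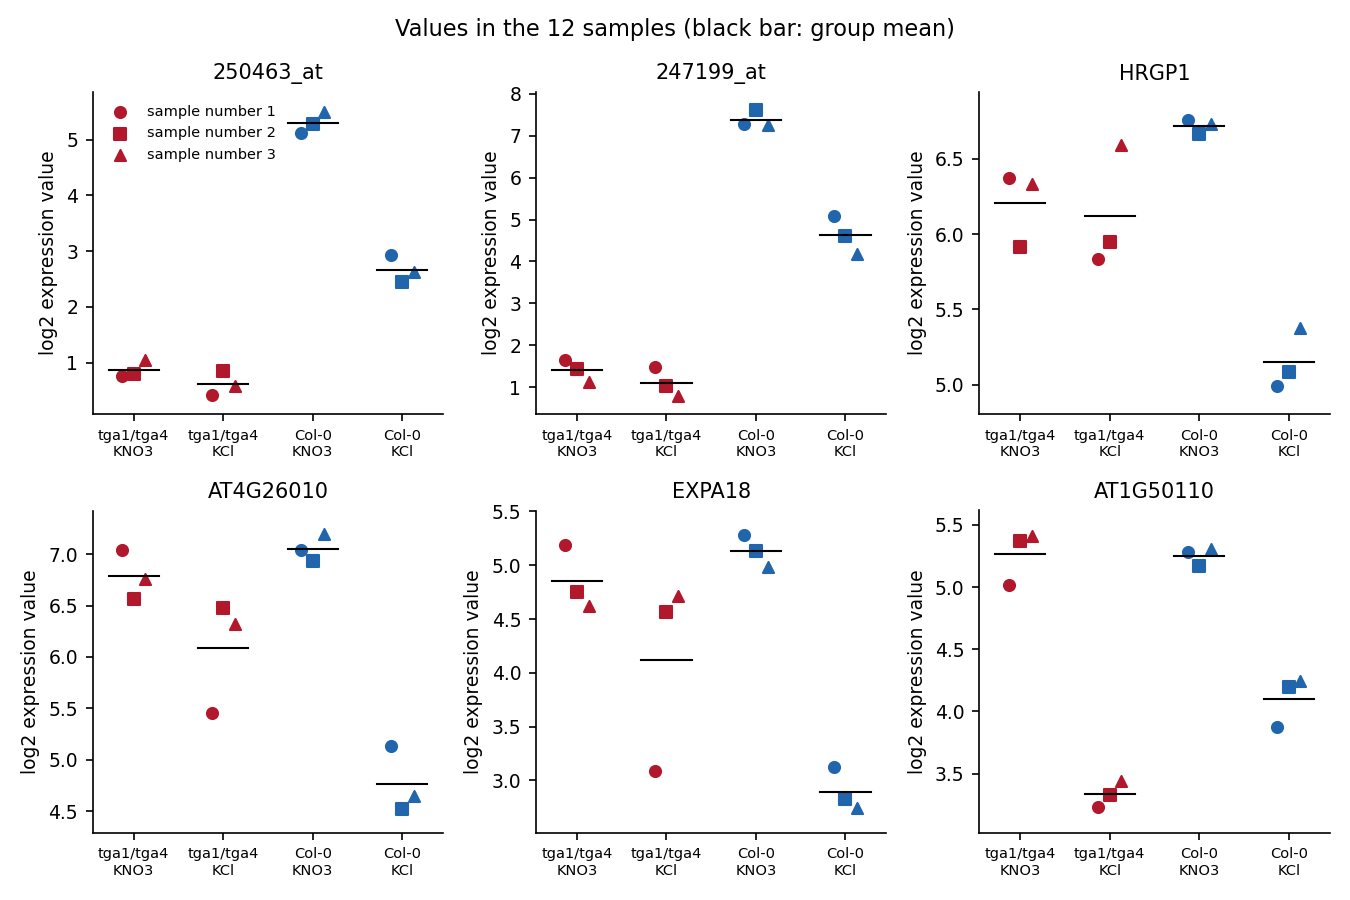
Log2 expression values in the 12 samples for 6 probe sets, with tga1/tga4 in red and Col-0 in blue; marker shape gives the sample number and a black bar the group mean. 250463_at and 247199_at are low in all 6 mutant samples, the KCl samples of AT4G26010, EXPA18 and HRGP1 are higher in tga1/tga4 than in Col-0 on average, and those of AT1G50110 are lower.

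For extensins the mutant stood on opposite sides of Col-0 under the salts. It was above Col-0 under KCl for 10 of 10 extensins, by a median of 0.38 against -0.007 over all probe sets. It was below Col-0 under KNO3 for 9 of 10, at a median of -0.45 against -0.001 over all probe sets. In 4 of the 5 root hair genes the mutant was likewise above Col-0 under KCl and below it under KNO3, at medians of 1.15 and -0.07 over the 5, and the difference between the lists was not tested. HRGP1 (AT3G54590) had 6.37, 5.92 and 6.34 in tga1/tga4 under KNO3 and 5.83, 5.95 and 6.59 in tga1/tga4 under KCl. In Col-0 it had 6.76, 6.66 and 6.73 under KNO3 and 4.99, 5.08 and 5.37 under KCl. The genotypes did not overlap under either salt. Col-0 rose by 1.57 (adjusted p = 0.000427) and the mutant had a response of 0.08 (adjusted p = 0.922). The interaction of -1.49 had an interval from -2.10 to -0.88 and a limma adjusted p of 0.957. With the replicate block its standard error was 0.19 against 0.28, and the limma adjusted p of 0.0619 did not pass either.

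AT4G08410 had 4.54, 4.06 and 4.32 in tga1/tga4 under KNO3 and 4.03, 4.22 and 5.20 in tga1/tga4 under KCl. In Col-0 its values were 5.08, 5.03 and 5.24 under KNO3 and 3.30, 3.89 and 3.94 under KCl. The genotypes did not overlap under either salt, and the interaction was -1.58 (standard error 0.39, unadjusted p = 0.00166). AT5G06630 had an interaction of -1.26 (unadjusted p = 0.00207), AT3G54580 one of -1.33 (0.0217), AT1G23720 one of -1.14 (0.0158) and AT1G26250 one of -0.68 (0.0437), or -0.44 without tga1/tga4 KNO3 sample 3. AT1G26250 stood at 9.28, 9.22 and 8.51 in tga1/tga4 under KNO3 and 10.20, 9.95 and 10.36 in tga1/tga4 under KCl. Its values in Col-0 were 9.56, 9.64 and 9.19 under KNO3 and 10.19, 9.81 and 9.83 under KCl. This gene fell by 1.16 in the mutant (adjusted p = 0.00669) and stood at -0.48 in Col-0 (adjusted p = 0.283), so its negative interaction was a larger fall and not a smaller rise.

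Extensins are a repetitive family, and 4 of the 10 probe sets end in _x_at, the array maker's mark for probes that can bind several transcripts, so members such as HRGP1, AT4G08410, AT5G06630 and AT1G23720 may share signal and are not separate measurements of separate genes. Averaged over the 10 extensins, tga1/tga4 had 4.55, 4.35 and 3.83 under KNO3 and 4.49, 4.62 and 5.07 under KCl. Col-0 had 4.79, 4.76 and 4.56 under KNO3 and 4.34, 4.15 and 4.31 under KCl. The tga1/tga4 samples numbered 3 were the lowest of their group under KNO3 and the highest under KCl. Their array quality weights were 0.577 under KNO3 and 0.42 under KCl, the latter the lowest of the 12 samples. With array quality weights the extensin median was -0.625, with 4 of 10 at an unadjusted p under 0.05, all lower (limma; 2.15% of all probe sets). Without the 4 samples numbered 3 the median interaction of the extensins was -0.59, with 9 of 10 negative and 4 at an unadjusted p under 0.05, all lower (limma; 1.16% of all probe sets). It was -0.69 without tga1/tga4 KNO3 sample 3 and -0.73 without tga1/tga4 KCl sample 3.

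**Figure D4:**
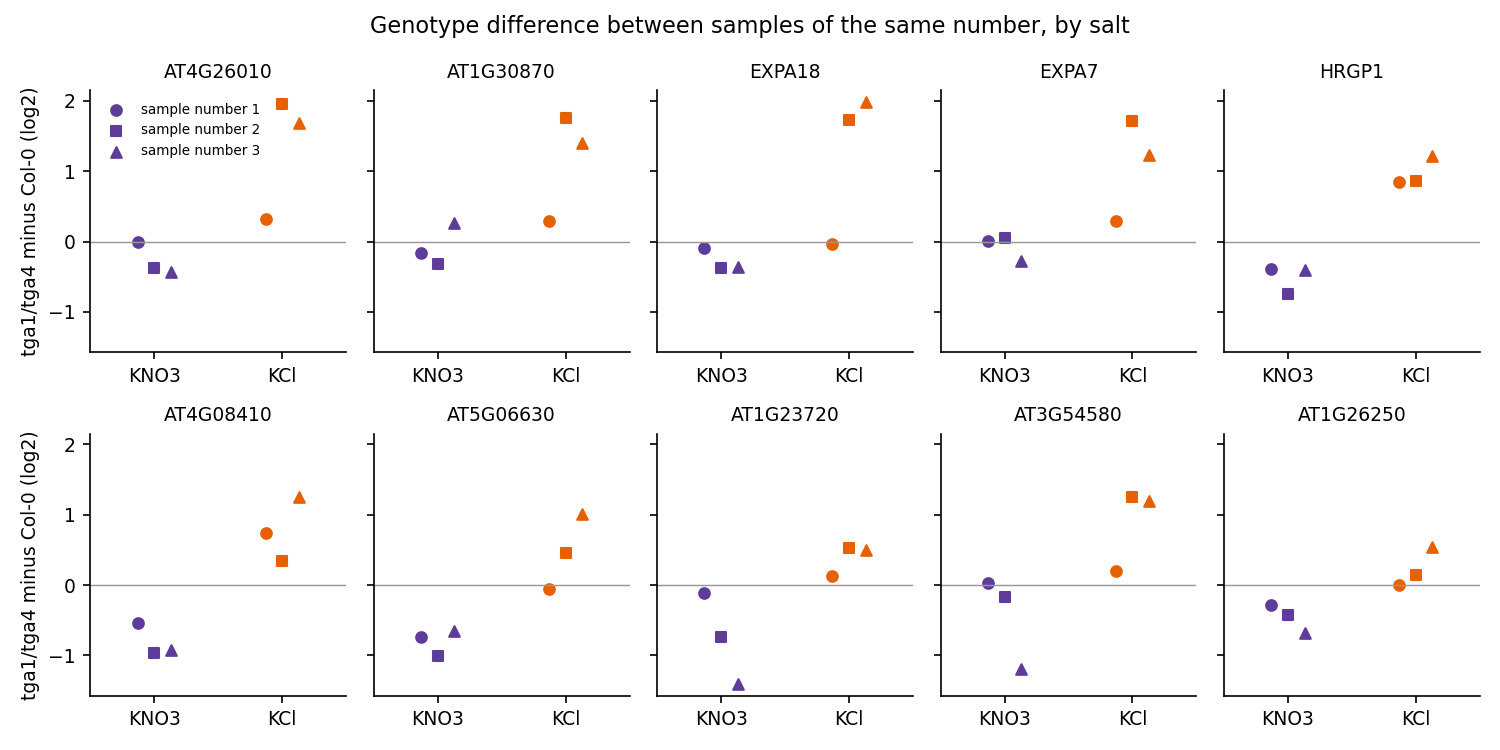
Difference between tga1/tga4 and Col-0 samples of the same number (vertical axis, log2) under KNO3 (purple) and KCl (orange), for the 4 root hair genes and 6 extensins with an unadjusted p under 0.05. In HRGP1 all 3 differences are negative under KNO3 and positive under KCl, while in the root hair genes the KCl difference of sample number 1 is smaller than those of numbers 2 and 3.

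Expansins as a whole showed less of this. Of 19 measured, 16 had a negative interaction, against 48.4% of all probe sets, and the median was -0.19. The adjusted threshold was met by 0 (limma), and 4 had an unadjusted p under 0.05, all lower, against 1.26% of all probe sets. The 4 were EXPA18 and EXPA7, described above, EXPA9 at -1.17 (standard error 0.50) and EXPA8 at -1.21 (standard error 0.37, unadjusted p = 0.00721). EXPA8 had 2.69, 2.53 and 3.37 in tga1/tga4 under KNO3 and 4.81, 5.14 and 5.11 in tga1/tga4 under KCl. In Col-0 it had 3.39, 2.91 and 3.58 under KNO3 and 3.77, 4.62 and 4.31 under KCl. EXPA8 fell by 2.15 in the mutant (adjusted p = 0.000349) and stood at -0.94 in Col-0 (adjusted p = 0.0646), which is a larger fall in the mutant where EXPA7 and EXPA18 had a smaller rise. Without the samples numbered 3, 13 of 19 expansins were negative, against 10765 of 22746 probe sets. There 1 expansin had an unadjusted p under 0.05 (limma), lower, against 1.16% of all probe sets. The median of the expansins was -0.08 without Col-0 KNO3 sample 3, -0.31 without Col-0 KNO3 sample 2 and -0.42 without tga1/tga4 KNO3 sample 3. Without tga1/tga4 KNO3 sample 2 it was -0.11, with 12 of 19 negative, against 10840 of 22746 probe sets. Other families of wall enzymes were closer to 0, with medians of -0.07 for 10 xyloglucan endotransglucosylases, 0.00 for 6 pectin methylesterases and -0.05 for 23 TRICHOME BIREFRINGENCE-LIKE genes, which act in wall polysaccharide acetylation. In that last family TBL21 had the smallest unadjusted p, at -0.98 (0.0432).

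The named genes with the smallest p on the lower side belonged in part to the same groups. Of the 10, 3 were the extensins HRGP1, AT4G08410 and AT5G06630 and 1 was the root hair peroxidase AT4G26010, and none of the 10 passed, with interactions from -1.72 to -0.64 and unadjusted p from 0.000199 to 0.00352. The mutant lay above Col-0 under KCl in 10 of them and above it under KNO3 in 1. As the 10 were chosen on a negative interaction, these counts describe them and test nothing. AT4G22640, a lipid transfer protein gene, had 4.01, 4.22 and 3.87 in tga1/tga4 under KNO3 and 2.88, 4.13 and 3.97 in tga1/tga4 under KCl. In Col-0 its values were 4.74, 4.31 and 3.91 under KNO3 and 2.47, 2.33 and 1.89 under KCl. Here too the KCl groups were separate, sample 1 was the lowest of tga1/tga4 under KCl, and the interaction was -1.72 (standard error 0.43).

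AT3G51330, of the aspartyl protease family, had an interaction of -0.69 and AT1G67330 one of -0.64, both with a standard error of 0.16 and with mutant KCl samples above all Col-0 KCl samples. AT3G49930, a C2H2 zinc finger gene, rose in both genotypes, by 0.80 in the mutant (adjusted p = 0.00415) and by 1.52 in Col-0 (adjusted p = 3.38e-05), with an interaction of -0.72. AT1G63580 at -0.67 and AT2G29340, of the short-chain dehydrogenase family, at -0.72 had all values under their sample medians, so the size of their interaction is uncertain.

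Of the 10 named genes with the smallest p on the higher side, none passed either, with interactions from 0.68 to 1.04 and unadjusted p from 0.00109 to 0.00419. In 10 of 10 the mutant lay below Col-0 under KCl and above it under KNO3. The 10 were chosen on a positive interaction, so this count describes them and tests nothing. AT1G50110 (BCAT6), a branched-chain amino acid aminotransferase gene, had 5.02, 5.37 and 5.41 in tga1/tga4 under KNO3 and 3.23, 3.33 and 3.44 in tga1/tga4 under KCl. In Col-0 it had 5.28, 5.17 and 5.31 under KNO3 and 3.87, 4.19 and 4.24 under KCl. The genotypes overlapped under KNO3 and were separate under KCl. It rose by 1.93 in the mutant (adjusted p = 4.71e-06) and by 1.15 in Col-0 (adjusted p = 0.000312), and the interaction was 0.78 with an interval from 0.35 to 1.21.

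AT3G49810, a U-box protein gene, had 3.91, 3.63 and 3.88 in tga1/tga4 under KNO3 and 2.38, 3.17 and 2.59 in tga1/tga4 under KCl. Its Col-0 values were 3.27, 3.38 and 3.62 under KNO3 and 3.25, 3.44 and 3.27 under KCl. The mutant rose by 1.10 (adjusted p = 0.00362) and Col-0 had a response of 0.10 (adjusted p = 0.874), with an interaction of 1.00 that did not pass. AT1G19715, a jacalin-type lectin gene, fell by 1.20 in Col-0 (adjusted p = 0.00442), had a response of -0.16 in the mutant (adjusted p = 0.828) and an interaction of 1.04. Of its 12 values 9 were under their sample medians, and with values raised to that floor the interaction was 0.47. AT1G70420 rose by 0.95 in the mutant (adjusted p = 0.000705), against a response of 0.27 in Col-0 (adjusted p = 0.324). The other 6 had interactions of 0.74 (AT5G24340), 0.90 (AT3G30300), 0.79 (AT1G56350), 0.68 (AT5G16210), 0.86 (AT1G30440) and 0.77 (AT2G25670). With the floor AT1G56350 stood at 0.32, with 7 of its 12 values under the medians. All values of AT1G70420 and AT5G24340 lay under their sample medians.

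The interaction can arise under either salt, and the components were set side by side. Under KNO3, 3 probe sets differed between the genotypes (0.0132%) and under KCl 4 (0.0176%), all lower in the mutant (limma adjusted p under 0.05). At an unadjusted p under 0.05 the counts were 397 under KNO3 (1.75%) and 1068 under KCl (4.7%). Of the 683 probe sets with an unadjusted interaction p under 0.05, 468 (68.5%) had the larger genotype difference under KCl, against 55.4% of all probe sets. These contrasts share samples with the interaction, so the shares describe where it lay and test nothing.

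The 67 probe sets with an interaction of at least 1 in size were mostly lower. There were 53 at -1 or below and 14 at 1 or above. Among the 53, the mutant lay above Col-0 under KCl in 51, at a median difference of 1.06, and below it under KNO3 in 44, at a median of -0.24. The response was positive in both genotypes for 39 of the 53, negative in the mutant and positive in Col-0 for 12, and negative in both for 2. The median response of the 53 was 0.30 in the mutant and 1.66 in Col-0, and 6 were called in the mutant (5.12% of all probe sets) against 41 in Col-0 (5.51%). The 53 include 29 with a single gene name, of which 5 were extensins, 4 expansins (EXPA7, EXPA8, EXPA9 and EXPA18) and 3 class III peroxidases (AT4G26010, AT1G30870 and AT3G49960). They were chosen on the interaction, and these values describe them.

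**Figure D5:**
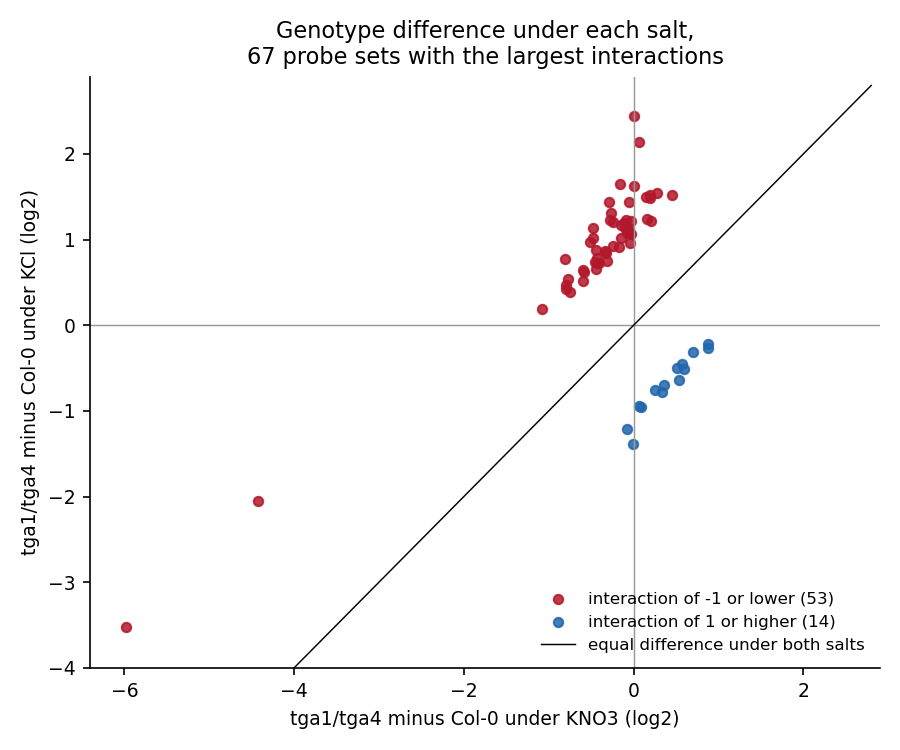
Difference between tga1/tga4 and Col-0 under KCl (vertical axis) and under KNO3 (horizontal axis), log2, for the 67 probe sets with an interaction of at least 1 in size; the line marks an equal difference under both salts. Of the 53 in red, 51 lie above 0 under KCl, and the other 2, 250463_at and 247199_at, lie far below 0 under both salts.

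Genes whose 12 values followed the leading named genes most closely were found by Pearson correlation across the samples, which share salts, genotypes and numbers. HRGP1 was most like AT4G08410 (r = 0.932), AT5G14330 (0.922) and AT3G51330 (0.919). AT4G26010 was most like EXPA18 (0.975), EXPA7 (0.954) and AT4G33730 (0.95), and AT3G51330 was most like HRGP1, AT2G28200 (0.908) and AT2G47540 (0.888). Their interactions lay between -1.58 and -0.62.

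Signs of handling and of other tissues were measured beside these groups. The 9 low-oxygen genes had a median interaction of 0.28, with 8 of 9 positive and 0 that passed (limma; 1 at an unadjusted p under 0.05), AT3G27220 at 0.61 (standard error 0.25, unadjusted p = 0.0333). AT5G10040 of that list stood at 8.21, 8.62 and 7.32 in tga1/tga4 under KNO3 and at 8.16, 8.02 and 6.35 in Col-0 under KNO3, with the samples numbered 3 lowest in both, while its 6 KCl values lay between 8.03 and 8.44. Its interaction was 0.645, or 0.065 without Col-0 KNO3 sample 3. Chloroplast-encoded genes, with 69 measured, had a median of 0.04, and their mean level ran from 2.27 to 3.07 over the 12 samples. Of 23 listed genes of photosynthetic shoot cells 3 were measured under a name, with a median of -0.10. Their mean level under KCl was 3.60, 2.73 and 2.79 in tga1/tga4 and 3.58, 2.81 and 2.86 in Col-0, and the genotypes overlapped. Markers of endodermis, xylem, phloem and root cap were not measured under a name, so their part in the root hair and extensin values was not tested.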

How the data were processed

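The data are log2 expression values, 1 per probe set and sample, as deposited by the authors in the series' value table. The labels' protocols give TriZol extraction and biotin-labelled cRNA on Affymetrix arrays, and how the authors corrected, normalized and summarised the arrays is not given in the sources used here. Hybridisation controls were used to check the log2 scale: cre exceeded bioB by 5.62 on average, and their nominal ratio corresponds to 6.06 in log2 and 4.2 in natural log units. Genes came from a supplied probe annotation: 13513 probe sets had 1 gene, 503 several and 8730 none, and 13436 of the 13513 matched RefSeq by gene identifier. Probe sets without a single gene are given by identifier, and sequences and coordinates were not used here.

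With 1 mean per group, a linear model of the 12 samples was fitted in limma 3.58.1 (R 4.3.3), leaving 8 residual degrees of freedom. Moderated two-sided tests were adjusted by Benjamini-Hochberg over 22746 probe sets at 0.05, and the fit was tested on simulated data. Those data were drawn from its own group means and residual spreads, so no result here rests on them. Intervals are 95% confidence intervals of the moderated fit, and the 12 arrays limit their precision. Intervals, standard errors and p-values are from the fit without the replicate block unless an alternative is named. Sample medians lay between 2.21 and 2.41.

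Replicate numbers were checked for pairing before calls were compared. Deviations of same-numbered mutant and Col-0 samples correlated at 0.276, 0.642 and 0.726 under KNO3 for numbers 1, 2 and 3. Under KCl they correlated at 0.533, 0.338 and 0.496. The numbers were therefore taken to pair the genotypes within a salt. For number 1 under KNO3 this is unclear, as mutant 1 with Col-0 2 and mutant 2 with Col-0 1 gave 0.208 and 0.255. Across salts the correlations ran from -0.136 to 0.229. On the second principal component (15.1% of the variance) the samples numbered 3 lay between -29 and -14.8 and the others between -6.9 and 28.

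Named genes are the 10 single-gene probe sets with the smallest p in each direction, unnamed probe sets that passed, and up to 3 members of each list with the smallest p. FER, EXPA9, AT1G23720, AT3G54580, AT1G26250, AT1G26240 and the unnamed 247199_at, 260624_at and 260851_at were chosen after their values were seen. The members and lists were chosen with earlier results of these data known. Alternatives covered the replicate block, normalization, filters, the variance model and leaving out samples, and the omission of the 4 samples numbered 3 was chosen after seeing the data.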

Additional observations from a re-analysis of the deposited data

Results flagged for a closer look

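Probe set 250463_at was singled out because its nitrate response differed between the genotypes by the test of the difference itself. The response was 0.25 in tga1/tga4 and 2.63 in Col-0, a difference of -2.38 (log2; limma, Benjamini-Hochberg adjusted p = 0.00731). All 6 mutant values were under their sample medians and not shown to exceed background. The rise in Col-0 alone then gives a difference of this sign. All 3 Col-0 samples under KNO3 lay above all 3 under KCl, while the mutant samples of the salts overlapped.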

How the results depend on the processing

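The interaction called 1 probe set, lower, in the fit reported and 2 with the replicate block of number within salt, of number over both salts, or of number within salt as a random block; the pairing thus added 247199_at (adjusted p = 0.00191, 0.0135 and 0.0104) and changed no other call. The count was also 2 with samples centred on their medians, with a floor at each sample's median, with an intensity trend and robust variance, with array quality weights, and when adjusted over the 2560 probe sets called for the average response. Quantile normalization and the brighter 50% of probe sets gave 1. An ordinary two-way model without moderation gave 0 (747 at an unadjusted p under 0.05), as did leaving out the 4 samples numbered 3 (564). With 1 sample left out the count ran from 0 to 2. It was 0 without Col-0 KCl replicate 3 or tga1/tga4 KNO3 replicate 1, where 250463_at had adjusted p of 0.051 and 0.0506, and 2 without Col-0 KCl replicate 1 or Col-0 KNO3 replicate 2. No alternative called a probe set higher (limma; from 68 to 896 at an unadjusted p under 0.05).

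The estimate for 250463_at stayed between -2.60 and -2.27 and that for 247199_at between -2.73 and -2.23 over the alternatives. Of 953 values for 41 named probe sets, 6 changed sign, in 3 genes. With a floor at each sample's median AT1G68670 stood at 0.067, and AT1G19715, AT1G56350, GTR1 and AT1G26240 moved by over 1.5 times, to 0.47, 0.32, -0.24 and -0.49. With 1 sample left out AT1G68670 ran from -0.39 to 0.12, AT3G25790 from -0.32 to 1.53 and AT1G26240, an extensin at -0.76, from -1.48 to 0.14. The cause was not tested. Signal over background limits 4 named probe sets that lay wholly below the sample medians and have no value with the floor.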

Other observations

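Probe set 260624_at, without a gene name, rose strongly in both genotypes. Its values were 4.42, 4.34 and 4.46 in tga1/tga4 under KNO3 and 0.83, 0.98 and 0.98 in tga1/tga4 under KCl. In Col-0 they were 5.72, 4.96 and 5.79 under KNO3 and 0.81, 0.84 and 0.59 under KCl. All 6 KCl values were under their sample medians, so the measured rises of 3.48 in the mutant (limma adjusted p = 4.11e-07) and 4.75 in Col-0 (2.86e-08) depend on signals not shown to exceed background. With values raised to the sample medians they were 2.10 and 3.12. The interaction was -1.27 (adjusted p = 0.999), or -1.02 with that floor. Col-0 KNO3 sample 2 was the lowest of its group, and without it the interaction was -1.54 with an adjusted p of 0.0219.

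Probe set 260851_at, also without a gene name, had an interaction of 1.38 (limma adjusted p = 0.734) that rests on dim signals. It had 1.20, 0.87 and 1.10 in tga1/tga4 under KNO3 and 1.12, 0.95 and 1.16 in tga1/tga4 under KCl. In Col-0 it had 0.87, 1.42 and 0.92 under KNO3 and 2.54, 2.64 and 2.22 under KCl. Of its 12 values 10 were under their sample medians, the exceptions being a pair of Col-0 KCl samples, and with values raised to the medians the interaction was 0.22.

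Among families not described above, the median interaction was -0.02 for 51 UGT glycosyltransferases, with 28 negative, and -0.06 for 22 cytochromes P450, with 15 negative. It was -0.09 for 13 glutathione transferases, with 9 negative, and -0.13 for 19 sugar transporters, with 15 negative. Over all probe sets 48.4% were negative, so a lean to negative values, as in the expansins, was not particular to wall families. Of 11 autophagy genes 7 were negative (median -0.09), and the 7 WRKY and 7 bHLH genes had medians of -0.10 and -0.05. The 4 jacalin lectins of that list had a median of 0.10 and the 6 class III peroxidases named by symbol a median of -0.25. In these lists 0 genes passed (limma; 0 at an unadjusted p under 0.05).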
